A study of Mus musculus with 4 samples.

Results

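Sst, Pvalb and Vip are 3 of the 140 genes of a MERFISH panel, and they were chosen by name as the panel's markers of the main classes of cortical inhibitory interneurons. They were read in cells with at least 3 counts of Gad1, the gene of a GABA-synthesizing enzyme, which were 185702 of the 794833 cells kept for analysis and of the 863580 cells measured. MERFISH images single RNA molecules in tissue through barcodes read over repeated rounds of hybridization, and 40 blank barcodes that match no probe measure false detection. The tissue was brain from mice at postnatal day 5, cut coronally at 10 microns through the barrel cortex, 24 hours after a lesion, made at postnatal day 4, of the whiskers on the right side. Each of the 4 coverslips held 1 wild-type and 1 Cx3cl1(-/-) section, male on coverslips 1 and 2 and female on coverslips 3 and 4. All groups compared below therefore carried the lesion and pooled the genotypes, and neither genotype, hemisphere nor brain region was assigned to a cell, because the files used here do not give them. Replicates are coverslips (n = 4), and the labels do not say whether their sections came from separate animals or litters, so p-values measure only the spread between these coverslips.

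GABA-making interneurons restrain the excitatory neurons around them, and in adult cortex the Sst, Pvalb and Vip classes are largely separate cells with different targets. Sst encodes the neuropeptide somatostatin and marks cells that contact distal dendrites; Vip encodes vasoactive intestinal peptide and marks cells, most frequent in upper cortical layers, that contact other interneurons. Pvalb encodes the calcium buffer parvalbumin of fast-spiking cells, and it is known to appear late in cortical interneurons and earlier in GABA neurons of the thalamic reticular nucleus.

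Sst and Vip are textbook targets of cyclic AMP signalling through the response element TGACGTCA, whose shorter form is TGACG. The 150 bases before a transcription start are shown for each gene because these windows differ in these letters, from RefSeq on build GRCm38.p6, 5′ to 3′ on the gene's strand, with the element in capitals. The Sst window is chr16:23890845-23890994 (minus strand), the Vip window chr10:5639068-5639217 (plus strand) and the Pvalb window chr15:78206401-78206550 (minus strand).
Sst: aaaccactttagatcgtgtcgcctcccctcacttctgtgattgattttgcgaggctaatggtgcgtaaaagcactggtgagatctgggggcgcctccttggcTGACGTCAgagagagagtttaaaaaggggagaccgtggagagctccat
Vip: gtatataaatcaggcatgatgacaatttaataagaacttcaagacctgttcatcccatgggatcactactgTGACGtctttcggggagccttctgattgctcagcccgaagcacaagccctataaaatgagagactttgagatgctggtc
Pvalb: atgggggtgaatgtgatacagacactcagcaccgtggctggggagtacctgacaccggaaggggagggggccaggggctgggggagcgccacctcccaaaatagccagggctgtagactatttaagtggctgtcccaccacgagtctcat
The full element begins 48 bases before the Sst start. The Vip window holds the short form alone, 79 bases before the start. Neither the Pvalb window shown nor that of a further Pvalb start (chr15:78204238-78204387) holds either form, which says only that these letters are not there. The annotated spans of Sst and Vip begin upstream of the starts used here, at chr16:23891342 and chr10:5639193. Windows before those ends are not shown. Searched on both strands, 1.36% of 32851 promoter windows of this length held the full element and 13.3% the short form, which the full element contains.

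Depth differed between coverslips. The 4 coverslips gave 33328342, 37768642, 44835350 and 76522968 gene counts in kept cells, and blanks made up 1.16% to 1.45% of counts. The Gad1 cells were 19.5% to 28.5% of kept cells, had medians of 233 to 359 gene counts, and 84.6% to 88.7% of them held at least 1 count of Gad2, which encodes the second GABA-synthesizing enzyme. Of the 11 GABA neuron genes on the marker list, only Gad1 and Gad2 are in the panel. Each gene's count depends on its own probes, so no member's level was set against another's.

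Sst was far above the blanks in Gad1 cells. Its level was 3.86, 4.11, 4.56 and 6.11 counts per Gad1 cell on coverslips 1 to 4 (4.66 ± 1.01, SD, n = 4). These levels were 6.77, 7.13, 9.28 and 18.7 times that of the highest blank, and Sst lay above all 40 blanks on every coverslip. Coverslip 4, the most deeply read, was highest by each of these measures. With each cell thinned to 100 gene counts, 11.04% of its Gad1 cells held at least 3 Sst counts, against 11.7% on coverslip 2. At least 3 counts of Sst were found in 13.3%, 16.1%, 16.3% and 17.3% of Gad1 cells, 29750 cells in all, with a median of 12 to 15 counts in these cells and a maximum of 307 to 527.

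Vip was rare, and its mean level alone did not separate it from the blanks. It had 0.376, 0.282, 0.266 and 0.360 counts per Gad1 cell (0.321 ± 0.0552), 0.660, 0.488, 0.540 and 1.10 times the highest blank. Vip lay above 39 of the 40 blanks on coverslips 1 to 3 and above all of them on coverslip 4. At least 3 counts of Vip were found in 1.81%, 1.43%, 1.14% and 1.60% of Gad1 cells, below the share of the highest blank on coverslips 1 to 3. High counts per cell did separate it. At least 10 counts of Vip were found in 0.525%, 0.477%, 0.357% and 0.719% of Gad1 cells, whereas the highest share of Gad1 cells with 10 counts of a blank was 0.0446%. The maximum was 55 to 92 counts of Vip in a cell, against 9 to 16 for a blank.

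Pvalb was at the level of the blanks in most Gad1 cells. Its level was 0.0927, 0.209, 0.200 and 0.344 counts per Gad1 cell (0.211 ± 0.103), and it lay above 26, 39, 38 and 40 of the 40 blanks. It was 0.163, 0.362, 0.406 and 1.05 times the highest blank, lowest on coverslip 1. At least 3 counts were found in 0.315%, 1.96%, 1.71% and 3.40% of Gad1 cells, where the highest blank gave 4.06%, 4.52%, 3.45% and 1.27%. The Pvalb share was below it on coverslips 1 to 3 and above it on coverslip 4. Cells with at least 10 counts numbered 1, 8, 49 and 338, and the maximum in a cell was 10, 12, 17 and 26 counts, so coverslips 1 and 2 gave almost no cell above the range of the blanks. With each cell thinned to 100 gene counts, which left out 5.44% to 15.6% of cells as shallower, the Pvalb share was 0.0218%, 0.253%, 0.126% and 0.427%, still lowest on coverslip 1. The thinned shares of Sst (10.2% to 11.7%) and Vip (0.570% to 0.963%) differed less between coverslips.

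**Figure D1:**
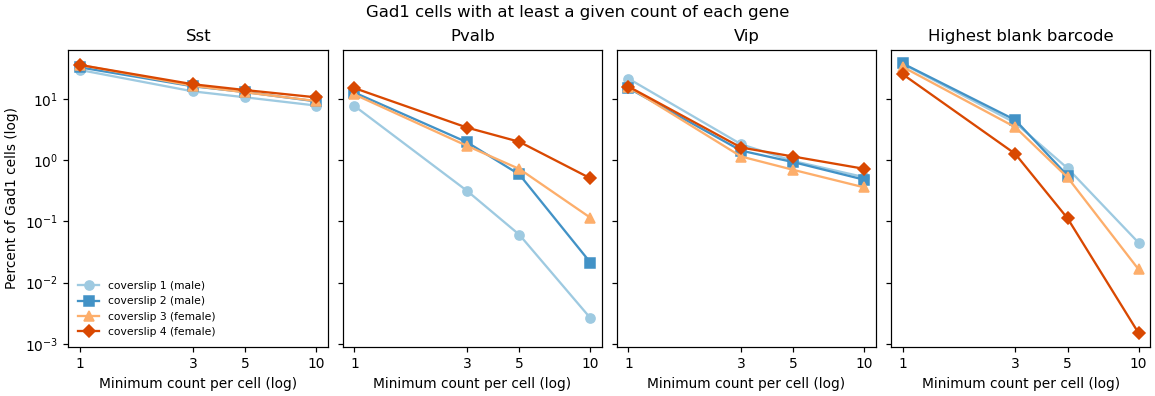
Percent of Gad1 cells (vertical, log scale) with at least 1, 3, 5 and 10 counts (horizontal, log scale) of Sst, Pvalb, Vip and the highest blank, 1 panel for each and 1 line per coverslip; a share of 0 is not drawn. At 10 counts Sst (7.77% to 10.6%) and Vip (0.357% to 0.719%) lie above the highest blank on every coverslip, whereas at 3 counts Pvalb and Vip lie below it on coverslips 1 to 3 and above it on coverslip 4.

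All 3 genes were higher in Gad1 cells than in cells with no Gad1 count, and Sst alone also cleared the blanks. Gad1-free cells held 0.350 ± 0.0931 counts of Sst, 0.0608 ± 0.0187 of Pvalb and 0.103 ± 0.0161 of Vip per cell. For Pvalb, Gad1 cells held 0.803 ± 0.440 counts in the border zone described below and 0.0802 ± 0.0196 beyond it. The test that follows pooled all zones. Relative to all gene counts, Sst was higher in Gad1 cells by 3.16 ± 0.26 on the log2 scale (SE; adjusted p = 0.000119), Pvalb by 1.12 ± 0.16 (adjusted p = 0.00685) and Vip by 1.05 ± 0.08 (adjusted p = 0.000501), each on 4 of 4 coverslips, by edgeR's quasi-likelihood test against a 1.5-fold difference with Benjamini-Hochberg adjustment. A gene was called only if it also lay above all 40 blanks on every coverslip in the group where it was higher. By the test alone 3 of 3 members were higher, where 7.91% of the 139 genes tested were; by the call rule 1 of 3 was, where 4.32% were. The other genes called higher were Gad2 (4.01 ± 0.09), the transcription factor gene Bcl11b (1.19 ± 0.10), Cx3cl1, which encodes the chemokine fractalkine and is disrupted in the knockout sections (0.91 ± 0.05), and Peg3 (0.85 ± 0.03) and Meg3 (0.63 ± 0.03), imprinted genes with high levels in neurons. Meg3 was not called without coverslip 3 (0.64) or coverslip 4 (0.63). Here 42 genes were lower and the median of all genes was -0.43; TMM factors moved this median to 0.05 and the summed cell volume as offset to -0.10, and DESeq2 called 8 higher and 26 lower.

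Microglia should hold none of the 3 genes and give a background share. In Gad1-free cells with at least 3 counts of the microglial receptor gene Csf1r, whose median depth was 122 to 185 gene counts, 0.670% to 1.11% held at least 3 counts of Sst, at most 0.186% of Pvalb and at most 0.0531% of Vip. In all Gad1-free cells the shares were 1.35% to 2.44%, 0.00905% to 0.0504% and 0.0941% to 0.216%, at medians of 135 to 223 gene counts. The Pvalb and Vip shares in Gad1 cells were above these on every coverslip. The Gad1 cells were also deeper, and cells of equal depth were not compared. Seen from the other side, 100% of cells with at least 10 Pvalb counts held at least 3 counts of Gad1. So did 91.8% to 96.2% of such Vip cells and 72.5% to 90.4% of such Sst cells. Such Pvalb cells numbered only 1 and 8 on coverslips 1 and 2. The shares were lower at 3 counts, the minimum for a positive cell. They were 86.3% to 96.6% for Pvalb, 62.8% to 74.9% for Vip and 56.97% to 76.2% for Sst. Gad1-free cells held 25.4% to 44.3% of all Pvalb counts, 25.9% to 41.1% of Vip counts and 6.16% to 21.7% of Sst counts.

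Vip and Sst were rarely found together, and Pvalb-positive cells were often Sst-positive. Of the Vip-positive Gad1 cells (at least 3 counts), 42, 16, 39 and 57 on coverslips 1 to 4 were also Sst-positive, where independent placement would give 80.1 to 187. The log2 odds ratio was -1.74 ± 0.68, below 0 on 4 of 4 coverslips. The Sst and Vip log2 odds ratio was -0.27 with cells positive at 2 counts. At 5 counts 20 cells held both against 229 expected, and at 10 counts 2 of 1015 Vip cells were Sst cells against 97.1 expected. Within the border zone of the territory described below, where 87 Vip-positive cells lay, 24 of them were Sst-positive and the log2 odds ratio was 0.31 ± 0.78.

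The Pvalb-positive cells were more often Sst-positive than other Gad1 cells were. They shared Sst in 64, 365, 489 and 1484 cells, against 15.9, 119, 119 and 395 expected from independent placement. That was 53.3%, 49.4%, 66.9% and 65.1% of the Pvalb-positive cells, and 1.27%, 6.02%, 6.99% and 12.8% of the Sst-positive cells. At 5 counts 12, 99, 206 and 846 cells held both, against 2.44, 28.4, 39.3 and 186 expected. At 10 counts 0 of 1, 1 of 8, 29 of 49 and 213 of 338 Pvalb cells were Sst cells. Coverslips 1 and 2 thus gave too few to compare at 10 counts. At 3 counts the log2 odds ratio was 2.92, 2.42, 3.46 and 3.33 (3.03 ± 0.47). Within the border zone described below it was 2.11, 1.57, 2.87 and 2.91 (2.36 ± 0.65), and an exact sign-flip test over 4 coverslips cannot go below p = 0.125. Pvalb and Vip met in 0, 4, 5 and 8 cells at 3 counts, where independent placement would give 57.7 in all (log2 odds ratio -1.55 ± 0.75). Within the border zone, where all 17 lay, 10.4 were expected and the log2 odds ratio was 1.17 ± 1.07. At 5 counts they met in 0 cells, against 19.6 expected over all tissue and 1.74 in the zone, too few there to compare. The 0 over all tissue allows a share of up to 0.159% of 1885 Pvalb cells and 0.169% of 1778 Vip cells for counting error only. All 3 genes reached 3 counts in 0, 2, 5 and 7 cells.

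The cells positive for each gene occupied different places. A territory was marked in each section where Tcf7l2, a Wnt-pathway transcription factor gene known for its high level in postnatal thalamus, was high (12.9 to 30.8 counts per Gad1-free cell inside, 0.448 to 1.16 outside). Almost all Pvalb-positive cells lay within 400 coordinate units of its border, a band drawn after the maps had been seen, so the values by band are a description with no test. This border zone held 11.9%, 19.0%, 19.1% and 18.5% of the Gad1 cells and 97.3% to 98.9% of the Pvalb-positive cells. It held 19.99% to 32.8% of the Sst-positive cells and 2.04% to 4.49% of the Vip-positive cells. The unit of the coordinates is not given in the sources used here.

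**Figure D2:**
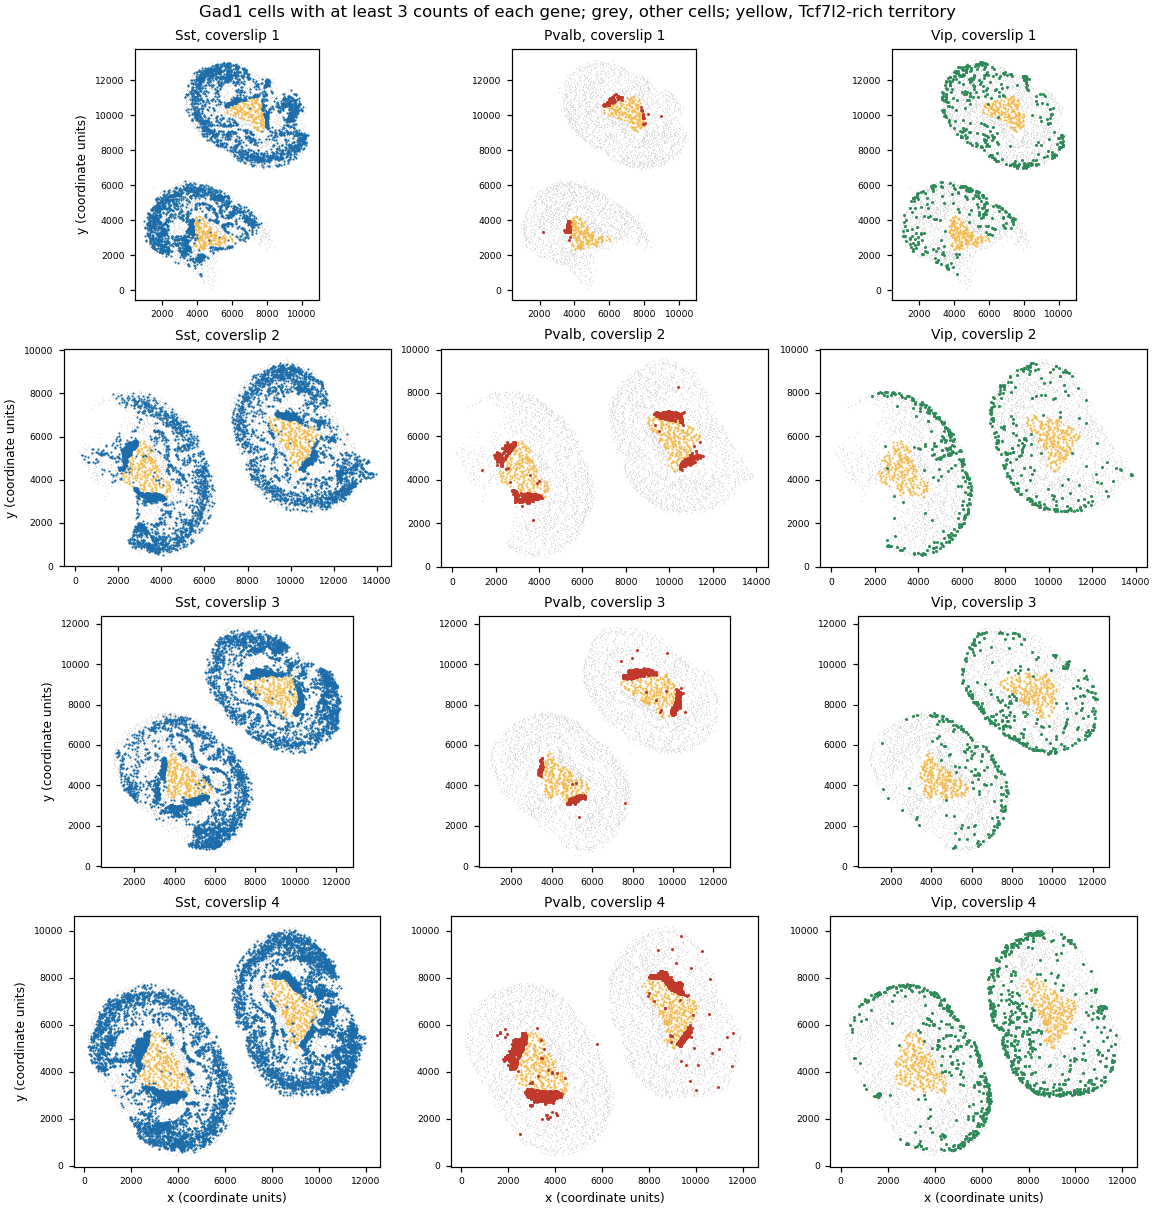
Positions of Gad1 cells positive for Sst, Pvalb and Vip (columns) on coverslips 1 to 4 (rows), in the coordinate units of the files, with 1 in 40 other cells in grey and the Tcf7l2-rich territory in yellow. Pvalb-positive cells line the territory, Sst-positive cells spread over the sections, and Vip-positive cells gather near section edges.

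Inside the border zone Pvalb stood at 0.326, 0.791, 0.706 and 1.39 counts per Gad1 cell, and beyond it at 0.0613, 0.0724, 0.0799 and 0.107. The shares of Gad1 cells with at least 3 Pvalb counts were 2.61%, 10.1%, 8.83% and 17.9% in the zone and 0.00597% to 0.110% beyond it. Every coverslip was therefore higher in the zone, with no overlap between the zones. In the zone Pvalb was 0.463, 1.24, 1.51 and 4.09 times the highest blank there on coverslips 1 to 4. It lay above 39 of the 40 blanks on coverslip 1 and above all 40 on the others. Beyond the zone 12 to 21 of the 40 blanks lay below Pvalb, so its level there could not be told from false detection. The zone thus also held 2387 of the 2402 cells with Pvalb and Sst. Beyond it 0, 2, 1 and 11 cells held both, against 0.241, 1.87, 0.987 and 8.85 expected from independent placement, too few to compare. All 17 cells with Pvalb and Vip lay in the zone.

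Within the border zone Pvalb was higher in cells with more Sst. The mean over coverslips was 0.364 ± 0.161 Pvalb counts per Gad1 cell with no Sst count, 0.854 ± 0.397 with 1 or 2, 1.31 ± 0.70 with 3 to 9, 1.70 ± 1.10 with 10 to 29 and 2.24 ± 1.35 with 30 or more. Beyond the zone the same bins ran from 0.0749 to 0.0944 with no such order. Among cells with at least 20 Sst counts in the zone, 10.1%, 20.9%, 33.4% and 50.3% held at least 3 Pvalb counts. Beyond it the shares were 0 of 1725 cells (up to 0.174%), 1 of 1626, 0 of 1951 (up to 0.154%) and 5 of 3531. Depth was not matched between the Sst bins; cells positive for Sst and Pvalb had medians of 434 to 625 gene counts and cells positive for no member 224 to 337. Gad1 itself was high in Pvalb-positive cells, at 27.6 to 50.5 counts per cell against 10.4 to 15.4 in all Gad1 cells.

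**Figure D3:**
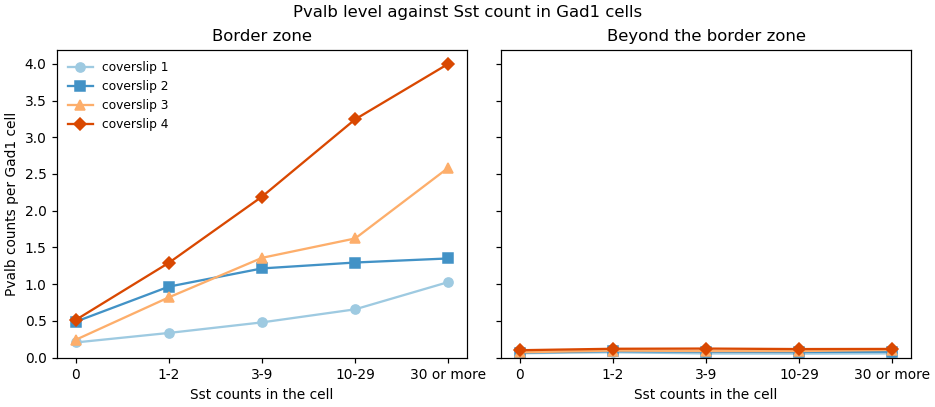
Pvalb counts per Gad1 cell (vertical) by the number of Sst counts in the cell (horizontal bins), for the border zone of the Tcf7l2-rich territory and for the tissue beyond it; each line joins the values of 1 coverslip. Means over coverslips in the zone climb from 0.364 to 2.24 and those beyond it stay between 0.0749 and 0.0944.

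Vip-positive cells lay near the edge of the section. The median distance to the edge was 316, 283, 283 and 300 coordinate units for cells positive for Vip alone, and 949, 922, 1005 and 1000 units for Gad1 cells positive for no member. Cells positive for Sst alone lay at 781, 762, 825 and 800.0 units and cells positive for Pvalb alone at 1768, 1616, 2025 and 1746 units. The 4 medians of each class did not overlap those of another class.

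Against Gad1 cells positive for no member, the difference was -673 ± 44.5 units for Vip, -177 ± 17.4 for Sst and 820 ± 143 for Pvalb (SD, n = 4). Sst cells lay 496 ± 33.6 units deeper than Vip cells. Each difference had 1 sign on 4 of 4 coverslips and an exact two-sided sign-flip p of 0.125, the smallest that 4 coverslips allow. Within 300 units of the edge lay 60.6% ± 2.79 of the cells with at least 10 Vip counts, 8.10% ± 0.80 of those with at least 10 Sst counts and 13.97% ± 1.57 of all Gad1 cells. Over 1000 units from it lay 100%, 71.2%, 99.7% and 99.3% of the Pvalb-positive cells, coverslip 2 being the lowest.

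**Figure D4:**
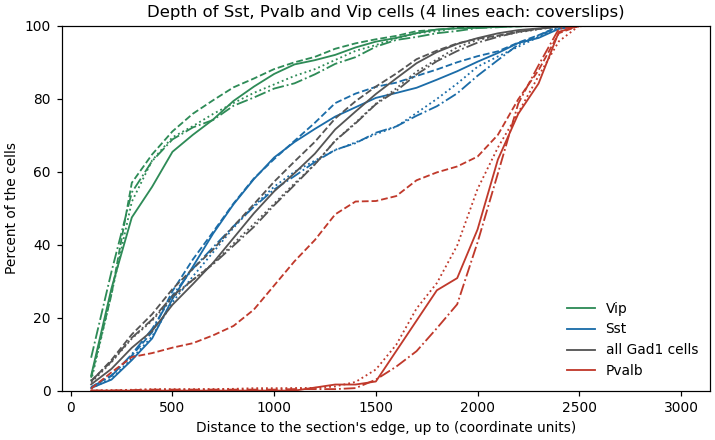
Cumulative percent of cells (vertical) by distance to the section edge in coordinate units (horizontal) for Vip-, Sst- and Pvalb-positive cells and all Gad1 cells, with 4 lines each for the coverslips. By 300 units the Vip lines have reached 47.5% to 56.96% and the Sst lines 8.35% to 9.96%, and by 1000 units the Pvalb lines are at 0% to 0.658% on coverslips 1, 3 and 4 and at 28.8% on coverslip 2.

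The members also differed between the 8 sections, which were told apart by position. Sst-positive cells were 12.6% to 19.4% of the Gad1 cells of a section, Vip-positive cells 0.873% to 2.13% and Pvalb-positive cells 0.283% to 4.40%. The sections of coverslip 1 gave 0.283% and 0.341% for Pvalb, below every other section, and those of coverslip 3 gave 0.842% and 2.43%. Vip formed a dense patch in 2 sections. On the second section of coverslip 1, 53 of 126 cells with at least 10 Vip counts had at least 10 other such cells within 150 units, as did 20 of 221 on the first section of coverslip 4 and none on the other 6 sections. Whether these sections are wild-type or Cx3cl1(-/-) is not known here.

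Cells positive for Vip alone differed from Gad1 cells positive for no member most in Tcf4, which was higher, and in Syt6 and Bcl11b, which were lower. Of 136 genes tested (Gad1 and the members chose the cells), 11, or 8.09%, were called, 6 higher and 5 lower. Tcf4, a transcription factor gene that takes part in interneuron development, was 1.51 ± 0.46 counts per Vip cell against 0.472 ± 0.089, higher by 1.64 ± 0.14 on the log2 scale (SE; edgeR adjusted p = 6.2e-06). The ligand gene Wnt7a was higher by 1.34 ± 0.12, the secreted Wnt modulator gene Sfrp2 by 1.21 ± 0.11, the Wnt receptor gene Fzd1 by 1.07 ± 0.10, the syndecan gene Sdc1 by 0.89 ± 0.08 and Adgra2, a co-receptor gene of Wnt7a signalling, by 0.80 ± 0.08. Each of these was higher on 4 of 4 coverslips.

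The genes lower in Vip cells were Syt6, a deep-layer gene (-1.51 ± 0.18), Bcl11b (-1.37 ± 0.14), and the glial genes Sox9 (-1.20 ± 0.10), Pdgfra (-0.88 ± 0.11) and Apoe (-0.84 ± 0.07). The median of all genes was 0.04. Of the gene lists, 1 of 19 Wnt ligand and secretion genes rose and none fell (median 0.15), 2 of 18 receptor genes rose and none fell (median 0.12), and 2 of 6 excitatory and layer genes fell (median -0.45). Of 3 oligodendrocyte precursor genes 1 fell (median -1.19), and of 4 astrocyte genes none was called (median -0.49). Adgra2 and Pdgfra were not called without coverslip 2 (0.72 and -0.81) or coverslip 4 (0.78 and -0.78). Summed oligodendrocyte precursor markers, among them Pdgfra, took 0.277% to 0.505% of the counts of Vip cells and 0.719% to 0.996% in cells positive for no member, and astrocyte markers 0.927% to 1.19% and 1.44% to 1.72%. The part of glial RNA from neighbouring cells in these differences was not tested.

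Cells positive for Pvalb alone, which numbered 56, 372, 242 and 795, stood apart mainly by low genes. Of 136 genes 8.09% were called, 3 higher and 8 lower. Bcl11b was 0.593 ± 0.261 counts per Pvalb cell against 4.83 ± 0.70 in cells positive for no member, lower by -3.62 ± 0.17 on the log2 scale (edgeR adjusted p = 5.3e-10). Sox2, a transcription factor gene of neural progenitors and glia, was lower by -2.16 ± 0.09, the AP-1 family gene Fosl2 by -1.92 ± 0.22, the astrocyte gene Gfap by -1.81 ± 0.17 and Cx3cl1 by -1.18 ± 0.13. Sox9 (-0.98 ± 0.11), the glutamate transporter gene Slc1a3 (-0.90 ± 0.08) and the ligand gene Wnt4 (-0.78 ± 0.09) completed the list. Summed astrocyte markers, among them Gfap and Slc1a3, took 0.743% to 1.09% of the counts of Pvalb cells. In cells positive for no member they took 1.44% to 1.72%. The part of glial RNA from neighbouring cells in these differences was not tested. Sections of both genotypes were pooled, and Pvalb-positive cells were split unequally between sections (163 and 568 on coverslip 3). The part of genotype in the Cx3cl1 difference was not tested.

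Sdc1 (1.05 ± 0.09), Gad2 (1.00 ± 0.08) and Sfrp2 (0.99 ± 0.12) were higher in Pvalb cells, against a median of all genes of -0.14. Gad2 stood at 19.1 ± 3.02 counts per Pvalb cell against 6.36 ± 1.61. Wnt4 was not called without coverslip 3 (-0.74) or coverslip 4 (-0.81), and 4 genes were higher and 4 lower with DESeq2, with the summed cell volume as offset, or with at least 5 Gad1 counts. The volume offset moved the median of all genes to 0.22. Of the lists, 1 of 19 Wnt ligand and secretion genes fell (median -0.21), none of 18 receptor genes was called (median -0.12), 1 of 6 antagonist genes rose (median 0.21) and 2 of 4 astrocyte genes fell (median -0.52).

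Position moved with these differences. Bcl11b stood at 18.3 ± 1.86 per 1000 gene counts in Gad1 cells positive for no member beyond the border zone and at 5.22 ± 2.05 in the zone. In the zone it was 0.792 ± 0.112 in Pvalb cells and 1.19 ± 0.22 in Sst cells, and beyond it 10.2 ± 0.48 in Sst cells and 6.28 ± 1.40 in Vip cells. Low Bcl11b was therefore shared by the Sst and Pvalb cells of the zone. Sdc1 in the zone was 3.03 ± 0.30 in Pvalb cells, 1.90 ± 0.27 in Sst cells and 1.75 ± 0.23 in cells positive for no member. Gad2 in the zone was 42.1 ± 3.95, 29.6 ± 2.04 and 21.04 ± 5.92 in the same classes. Sfrp2 in the zone was 3.50 ± 0.26 in Pvalb cells, 3.53 ± 0.59 in Sst cells and 2.13 ± 0.38 in cells positive for no member. Against cells positive for no member in the zone, Pvalb cells held 2.06 ± 0.40 of Sox2 against 9.03 ± 1.92 and 1.02 ± 0.46 of Gfap against 5.71 ± 2.04. They held 8.09 ± 3.00 of Cx3cl1 against 11.4 ± 1.14, with overlapping ranges. Fosl2 was 0.851 ± 0.753 in them against 0.920 ± 0.155, so the Fosl2 means lay within the spread there. Wnt7a was 6.16 ± 0.65 in Vip cells beyond the zone against 2.64 ± 0.32 in cells positive for no member there, and Sox2 was 13.5 ± 0.66 and 10.6 ± 0.65.

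In cells positive for Sst alone against Gad1 cells positive for no member, no gene was called among 136 (0%), 8 had an unadjusted p under 0.05 by edgeR, and DESeq2 called 0. The microglial receptor gene Cx3cr1 (1.04 ± 0.09, adjusted p = 0.000703) and the kinase gene Musk (0.91 ± 0.06, adjusted p = 0.000703) passed the edgeR test on 4 of 4 coverslips, at 0.623 ± 0.156 and 0.1003 ± 0.0215 counts per Sst cell, but were not above all blanks. Bcl11b stood at 8.31 ± 0.58 per 1000 gene counts in Sst cells against 16.5 ± 1.78, with no overlap (-0.86 ± 0.14, edgeR adjusted p = 0.212, lower on 4 of 4 coverslips). Of 6 excitatory and layer genes none was called (median -0.53, against -0.07 for all genes). Cx3cr1 followed the Sst count beyond the border zone, from 0.252 ± 0.053 per cell with no Sst count to 1.12 ± 0.28 with 30 or more. The microglial list, which includes Cx3cr1, was 0.603% to 0.696% of the counts of Sst cells and 0.553% to 0.626% in cells positive for no member. Of its 8 genes none was called (median 0.05, against -0.07 for all genes). A pair of blanks also rose with the Sst count, as given further below. The parts of microglial RNA and of false detection were not tested.

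Set directly against each other, Sst and Vip cells differed in 6 of 136 genes (4.41%). Syt6 was higher in Sst cells by 1.11 ± 0.18 on the log2 scale (1.42 ± 0.37 against 0.595 ± 0.237 counts per cell). Fzd1 (-1.57 ± 0.10), Tcf4 (-1.32 ± 0.14), Wnt7a (-1.04 ± 0.12), Adgra2 (-0.82 ± 0.08) and Sdc1 (-0.78 ± 0.08) were lower in them, all on 4 of 4 coverslips (edgeR adjusted p = 3.2e-07 to 0.0412). Syt6 and Adgra2 lost their call without coverslip 2 (0.96 and -0.73) or coverslip 4 (0.94 and -0.80), and Sdc1 without coverslip 2, 3 or 4 (-0.76, -0.76 and -0.75). Without coverslip 1, 4 genes were higher and 10 lower. Without the coverslip as a block, none was higher and 3 were lower. TMM factors gave 4 higher and 3 lower, and the volume offset 4 higher and 2 lower.

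Cells positive for Sst and Pvalb were set against cells positive for Sst alone in a comparison added after the overlap had been seen. Of 136 genes 6.62% were called. Bcl11b was 0.496 ± 0.144 counts per cell against 3.12 ± 0.84 (-3.20 ± 0.09; edgeR adjusted p = 1e-06), Sox2 -2.50 ± 0.09, Wnt7a -2.25 ± 0.12 and Cx3cl1 -1.45 ± 0.15. Gfap (-1.35 ± 0.11), Fosl2 (-1.86 ± 0.35) and the upper-layer gene Cux2 (-0.86 ± 0.09) were also lower, and Sdc1 (1.05 ± 0.09) and Gad2 (0.76 ± 0.04) higher. Astrocyte markers, among them Gfap, took 0.580% to 0.810% of the counts of cells with Sst and Pvalb and 0.940% to 1.13% in Sst cells. The part of glial RNA from neighbouring cells was not tested. Fosl2 was not called without coverslip 2, 3 or 4 (-1.73, -1.73 and -1.60), nor Cux2 without coverslip 1 or 2 (-0.81 and -0.80). Of these cells 2373 lay in the border zone and 14 beyond it, so the classes were also set side by side within the zone, as a description with no test, in counts per 1000 gene counts. There Bcl11b stood at 0.877 ± 0.153 in cells with Sst and Pvalb and at 1.19 ± 0.22 in Sst cells, with overlapping ranges. Fosl2 (1.23 ± 1.06 and 0.804 ± 0.259) and Cx3cl1 (5.87 ± 2.40 and 8.15 ± 1.39) overlapped too, and the Fosl2 means had the opposite order. The part of genotype in the Cx3cl1 difference was not tested here either. Sox2 (1.53 ± 0.28 and 5.13 ± 1.62), Wnt7a (0.602 ± 0.121 and 1.41 ± 0.35) and Gfap (0.825 ± 0.158 and 1.70 ± 0.38) were lower in cells with Sst and Pvalb with no overlap. Sdc1 (3.01 ± 0.28 and 1.90 ± 0.27) and Gad2 (35.4 ± 3.10 and 29.6 ± 2.04) were higher in them with no overlap. Without the coverslip as a block 1 gene was higher and 6 were lower, and with the volume offset 4 were higher and 6 lower.

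**Figure D5:**
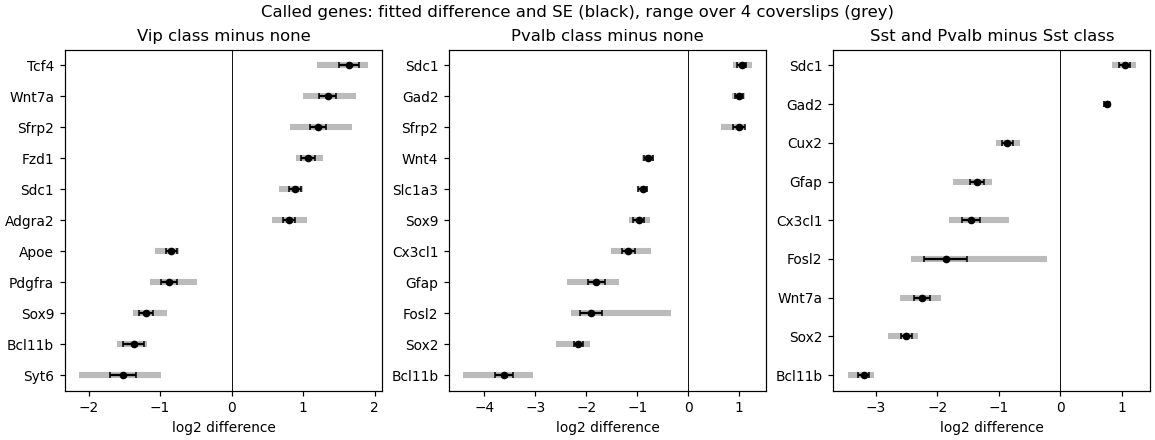
Log2 differences (horizontal) with SE of the called genes for Vip cells against cells positive for no member, Pvalb cells against the same cells, and cells positive for Sst and Pvalb against Sst cells; grey bars give the range over 4 coverslips. Bcl11b is the lowest gene of the last 2 panels, at -3.62 and -3.20, and Tcf4 the highest of the first at 1.64.

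The Gad1-free cells around each class describe its surroundings. They were taken within 100 units of a class cell, and a cell could be a neighbour of several classes. Around Pvalb cells 24 of 139 genes (17.3%) were called, 9 higher and 15 lower than around cells positive for no member. Tcf7l2 was 8.39 ± 3.92 counts per neighbour against 2.42 ± 1.54 (1.89 ± 0.22; edgeR adjusted p = 0.000174). The ligand gene Wnt3 (1.35 ± 0.09), the receptor gene Fzd10 (1.26 ± 0.16), Lef1, a partner of beta-catenin (1.22 ± 0.11), Sox2 (1.09 ± 0.09) and Sox10 (0.89 ± 0.06) were higher.

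The layer genes Bcl11b (-2.38 ± 0.26) and Syt6 (-2.12 ± 0.13), Fosl2 (-1.99 ± 0.07), Sfrp1 (-1.85 ± 0.18), Prkce (-1.52 ± 0.18) and Tcf4 (-1.40 ± 0.10) were lower around Pvalb cells. Of the 6 excitatory and layer genes 4 were lower and 1, Tcf7l2, higher (median -1.16 against -0.11 for all genes), and 2 of 4 TCF and LEF genes were higher. Of the glial lists, 2 of 3 oligodendrocyte precursor genes were higher (median 0.87), as was 1 of 8 microglial genes, Cx3cr1 (0.82 ± 0.10; median 0.60), 1 of 4 astrocyte genes, Gfap, was lower (median 0.12), and none of 3 vessel genes was called (median 0.62). TMM factors gave 13 higher and 12 lower, the volume offset 13 and 13, and DESeq2 11 and 8. Sox2 thus was lower in Pvalb cells and higher in the cells around them. Pvalb itself was 0.0968 ± 0.0151 counts per neighbour against 0.0622 ± 0.0182 (0.61 ± 0.07, adjusted p = 1) and was not above the blanks.

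Around Vip cells 3 of 139 genes (2.16%) were called, all lower. They were Tcf7l2 (0.370 ± 0.116 counts per neighbour against 2.42 ± 1.54; -2.68 ± 0.22, edgeR adjusted p = 2.4e-05), Sox2 (-0.94 ± 0.09) and Sdc4 (-0.74 ± 0.05). Sox2 was not called without coverslip 3 (-0.93), nor Sdc4 without coverslip 2 or 3 (-0.70 and -0.71), and 6 genes were lower without coverslip 4. Vip itself was 0.156 ± 0.024 counts per neighbour against 0.108 ± 0.020 (0.42 ± 0.06, adjusted p = 1) and Sst 0.169 ± 0.023 against 0.261 ± 0.030 (-0.74 ± 0.12, edgeR adjusted p = 0.408). Around Sst cells none of 139 was called (0%), 1 had an unadjusted p under 0.05 by edgeR, and DESeq2 called 0.

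Neighbours of Sst cells differed from neighbours of Vip cells in 3 of 139 genes (2.16%), all higher. Tcf7l2 was 0.984 ± 0.427 counts per neighbour against 0.370 ± 0.116 (1.44 ± 0.22), Syt6 0.843 ± 0.211 against 0.457 ± 0.215 (1.04 ± 0.11) and Sst 0.323 ± 0.045 against 0.169 ± 0.023 (1.02 ± 0.12), each with an edgeR adjusted p of 0.015. None was called without coverslip 2, at 1.33, 0.98 and 0.99. Syt6 and Sst were not called without coverslip 1 (1.04 and 0.97), nor Tcf7l2 without coverslip 3 (1.46) or 4 (1.35). Sst also chose the class cells, so its call cannot be read as a trait of the surroundings. The part of Sst RNA assigned to a neighbour across cell borders was not tested.

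No member was called as different between the sexes. Female coverslips held 5.34 ± 1.10 counts of Sst per Gad1 cell and male coverslips 3.99 ± 0.18 (n = 2 each; -0.04 ± 0.18 on the log2 scale relative to all gene counts, edgeR adjusted p = 0.955). For Pvalb the means were 0.272 ± 0.102 and 0.151 ± 0.082 (0.37 ± 0.22, adjusted p = 0.52), and for Vip 0.313 ± 0.067 and 0.329 ± 0.066 (-0.54 ± 0.22, adjusted p = 0.145). Of 139 genes 1.44% were called, Tcf7l2 higher in females (0.70 ± 0.20) and Gsk3b lower (-0.73 ± 0.18). Both lost their call without coverslip 2 (0.46 and -0.57) or coverslip 4 (0.47 and -0.68). A permutation of 2 against 2 coverslips cannot go below p = 0.333, and the female coverslips were also the deeper ones, which cannot be told apart from sex.

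Genes that varied over the tissue like each member were listed from 1036 to 1347 squares of side 200 per coverslip, by Pearson's r of the log2 mean count per Gad1 cell, averaged over coverslips. These are descriptions, since squares of 1 coverslip share its depth. For Vip the genes most like it were Tcf4 (0.45), Cux2 (0.43), Sdc1 (0.39), Apc (0.35) and Wnt5b (0.33), all above the highest r of a blank with Vip (0.17). For Pvalb they were Gad1 (0.37), Fzd7 (0.37), Sfrp4 (0.34), Etv4 (0.27) and Fzd10 (0.25), where a blank reached 0.26. For Sst 2 blanks came first, with r of 0.48 and 0.43, ahead of Fosl2 (0.42), Cx3cr1 (0.32), Prkce (0.30), Cux2 (0.30) and Wnt7b (0.26). Between the members, r was 0.12 for Sst and Pvalb, 0.02 for Sst and Vip and -0.05 for Pvalb and Vip.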

How the data were processed

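The deposited files hold counts of decoded RNA molecules per segmented cell for 140 genes and 40 blanks, and other measures per the file headers, namely the volume and centre of each cell. Which software the authors used for decoding and segmentation is not given in the sources used here. All counts were whole numbers with no normalization. Columns were matched by gene name ignoring case, and no column of per-cell values was left without a sample. Cells with fewer than 20 gene counts were left out. The members, gene lists and comparisons were chosen with earlier results of these data known.

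Gad1 cells held at least 3 counts of Gad1, and a cell was positive for a member at 3 counts. Counts were summed per coverslip and class and fitted with edgeR 4.0.16 (R 4.3.3; glmQLFit, and glmTreat against a 1.5-fold difference, or glmQLFTest for sex), with coverslip as a block because the classes compared lie on the same coverslips, and with the summed counts of all genes tested as offset. The 4 classes (Sst, Pvalb, Vip, none) entered 1 fit, as did their neighbours, so each SE draws on the spread over all 4. Each p was adjusted over all genes tested (Benjamini-Hochberg, 0.05). Gad1, and in class fits the members, were not tested. The fits were tested on simulated counts.

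Named genes were the members, up to 8 called genes per direction in class fits and 6 among neighbours with the largest difference, and the 5 genes most like each member over squares (log2 of the mean plus 0.1). Sections were the 2 largest connected pieces, on each coverslip, of a grid of side 100, counting squares that hold 4 or more cells. The Tcf7l2-rich territory was the largest connected piece of squares whose Tcf7l2 level in Gad1-free cells, smoothed over 3 squares, reached 0.25 of the 99th percentile of the section. Odds ratios added 0.5 to each cell of the 2 by 2 count. Shares and limits cover counting error only. Alternatives varied the Gad1 and positive minimums, scaling, test, block, radius and coverslips, with DESeq2 1.42.0; the positive minimum of 10, the tissue beyond the border zone and the fit of Sst and Pvalb cells were added after the data were seen. Python 3.11.15, pandas 2.3.3 and scipy 1.17.1 were used.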

Additional observations from a re-analysis of the deposited data

Results flagged for a closer look

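A pair of blank barcodes, which serve above only as measures of false detection, was higher in cells with more Sst. In Gad1 cells beyond the border zone, Blank-22 stood at 0.0334 ± 0.0059 counts per cell with no Sst count and at 0.478 ± 0.114 with 30 or more Sst counts (SD, n = 4). Blank-38 stood at 0.0758 ± 0.0148 and 0.666 ± 0.210. The median of the other 38 blanks was 0.0847 ± 0.0108 and 0.126 ± 0.021 in the same cells. Blank-22 and Blank-38 also had the highest r with Sst over squares (0.48 and 0.43), so their rise with the Sst count is not separate support. No other single blank was set beside them. Per 100 Sst counts, cells with 30 or more held 0.612 ± 0.159 of Blank-22, 0.834 ± 0.185 of Blank-38 and 1.41 ± 0.21 of Cx3cr1. No member stood far from the others on a single coverslip by Dixon's criterion in 19 measures.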

How the results depend on the processing

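Shares of positive cells follow the minimum count. The Sst share was 19.8% at 2 counts, 12.6% at 5, 9.17% at 10, 11.002% after thinning, 18.4% with at least 5 Gad1 counts and 13.6% beyond the border zone. The Pvalb share was 3.36% at 2 counts, 0.161% at 10, 0.207% after thinning and 0.0455% beyond the zone. The Vip share was 3.42% at 2 counts, 0.931% at 5, 0.520% at 10 and 0.833% after thinning. The log2 odds ratio of Sst and Pvalb was 2.48 at 2 counts, 2.40 after thinning and 0.46 beyond the zone. The Sst and Vip log2 odds ratio was -0.27 at 2 counts, -3.83 at 5, -4.94 at 10 and -4.32 after thinning. The distances to the section edge kept their sign under the alternatives run.

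Counts of called genes are given as higher, then lower. Tested against no difference they were 10 and 64 for Gad1 cells, 7 and 12 for Sst cells, 30 and 16 for Vip cells, 12 and 21 for Pvalb cells, 12 and 33 for Sst against Vip cells, and 10 and 16 for cells with Sst and Pvalb. Around the classes they were then 3 and 20 (Sst), 31 and 42 (Vip), 33 and 42 (Pvalb), and 28 and 24 (Sst against Vip). With TMM factors 26 genes were lower in Gad1 cells, 1 was higher in Sst cells, 4 were higher and 3 lower in Sst against Vip cells, and 0 and 0 differed between sexes. With the volume offset 1 was higher in Sst cells, 4 were lower in Pvalb cells, 4 were higher and 2 lower in Sst against Vip cells, 1 was lower around Vip cells, 4 were higher in cells with Sst and Pvalb, and 0 and 0 differed between sexes. With DESeq2 26 were lower in Gad1 cells, 4 in Pvalb cells, 3 in Sst against Vip cells, 1 around Vip cells and 8 around Pvalb cells, 1 was higher around Sst against Vip cells and 0 in females. Tested among genes above blanks only, 3 were higher in Sst against Vip cells.

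Without the replicate block 3 genes were lower in Vip cells, 0 were higher and 3 lower in Sst against Vip cells, 1 was lower around Vip cells, 1 was higher around Sst against Vip cells and 1 in cells with Sst and Pvalb; no other count of calls moved by over 1.5 times. With at least 5 Gad1 counts 3 were lower in Vip cells, 4 in Pvalb cells, 2 were higher in Sst against Vip cells, 1 around Vip cells, 14 around Pvalb cells, 1 was lower around Sst against Vip cells, and 0 were higher in females. With positive cells at 5 counts 1 was lower in Sst cells and 1 around them, 5 were higher and 9 lower in Sst against Vip cells, 1 and 11 around Vip cells, and 1 lower around Sst against Vip cells. At a radius of 50 the counts were 1 and 12 around Vip cells, 21 higher around Pvalb cells and 2 lower around Sst against Vip cells. At a radius of 200 they were 1 lower around Vip cells, 5 higher around Pvalb cells and 1 higher around Sst against Vip cells.

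Leaving out each coverslip in turn gave 0 to 4 higher and 3 to 10 lower in Sst against Vip cells, 0 to 1 and 1 to 6 around Vip cells, 0 to 3 and 0 to 1 around Sst against Vip cells, and 0 to 2 in each direction between sexes. Reversed signs concerned members that were not called. Pvalb around Sst cells was -0.0081 with at least 5 Gad1 counts and -0.010 at a radius of 50. Sst around Pvalb cells (-0.08) was 0.030 with TMM factors, 0.0099 with the volume offset, 0.12 with DESeq2, 0.097 without coverslip 4 (leaving out 1 coverslip in turn, -0.20 to 0.097), 0.21 with positive cells at 5 counts and 0.24 at a radius of 50. Between sexes Sst (-0.04) was 0.39 with the volume offset and 0.0041 with at least 5 Gad1 counts, and Pvalb was -0.092 without coverslip 1 (leaving out 1 coverslip in turn, -0.092 to 1.05). The causes were not tested. Coverslips 1 and 2, with medians of 233 and 239 gene counts per Gad1 cell, gave 120 and 739 Pvalb-positive cells, which limits what can be said of Pvalb there.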

Other observations

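Among Gad1-free cells grouped by 1 other marker (at least 3 counts), Sst at 3 counts or more was found in 1.73% ± 0.47 of Syt6 cells, 1.72% ± 0.93 of Aqp4 cells, which hold an astrocyte water channel gene, and 1.69% ± 0.60 of Bcl11b cells, and in 0.528% ± 0.099 of Cldn5 cells, which hold a vessel gene (SD, n = 4). Vip at 3 counts or more was found in 0.338% ± 0.146 of Cux2 cells, 0.317% ± 0.269 of Bcl11b cells and 0.251% ± 0.131 of cells with the glutamate transporter gene Slc17a6. Pvalb at 3 counts or more reached at most 0.182% in any of these 6 groups on any coverslip. The groups overlap and differ in depth, and the differences were not tested.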
